A study of Mus musculus with 6 samples.

Results

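ADAM proteins are membrane-anchored cell surface proteins with a metalloprotease-like and a disintegrin domain, and a large branch of the mouse family belongs to the testis and to sperm. The set described here holds all 34 ADAM symbols of the deposited tables (Adam, digits and an optional letter, with the secreted Adamts relatives left out) and 6 genes whose products handle or accompany sperm ADAM proteins: Clgn, Calr3, Pdilt, Ace, Tex101 and Ly6k. These are 40 of 25165 symbols, each on a single row of every table. They were read in testis RNA from 8-week-old C57BL/6 mice, in 3 libraries with the title KO and 3 with the title WT. The titles name no gene. The genotype label names NR_038002, the transcript of the testis long non-coding RNA Teshl, and no source used here says how the gene was removed. For every library the genotype label says the opposite of the title: a KO title stands beside "Wild type" and a WT title beside NR_038002-/-. Titles were followed. The targeted gene, 1700027A15Rik, was at 0.385 FPKM in KO-titled replicate 1 and listed at 0 in replicates 2 and 3, against 1028, 989 and 1081 FPKM in WT-titled testes.

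In mouse spermatids, ADAM1 and ADAM2, the fertilins, and ADAM3, or cyritestin, are made as precursors in the endoplasmic reticulum and carried to the sperm surface. Calmegin (Clgn) helps ADAM1A pair with ADAM2, and calsperin (Calr3) and Pdilt are needed for ADAM3 to mature. Mouse sperm without surface ADAM3 pass poorly from uterus to oviduct and bind poorly to the zona pellucida, and loss of Ace, Tex101 or Ly6k disturbs ADAM3 too. Other ADAM proteins, such as ADAM10 and ADAM17, are widely expressed sheddases that cut signalling proteins from the cell surface.

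Values are FPKM, fragment counts corrected for transcript length and library depth, so levels may be compared between genes. Library totals ran from 398081 to 413604 FPKM in KO-titled testes and from 393622 to 413589 FPKM in WT-titled testes. The spacing of the lowest values put depth at 32.2 to 39.3 M (mega) fragments in KO-titled testes and 27.3 to 32.2 M in WT-titled testes, where 3 fragments on 1 kb equal 0.0764 to 0.1099 FPKM. The testis origin held in both groups: elongating spermatid markers summed to 30980 to 33020 FPKM in KO-titled testes and 25890 to 29700 FPKM in WT-titled testes. The epididymal markers Lcn5 and Lcn8 were listed at 0 in all libraries but WT-titled replicate 3, where Lcn8 was at 0.0673 FPKM. All 6 epididymal markers summed to 2.95 to 3.05 FPKM in KO-titled testes and 2.68 to 3.76 FPKM in WT-titled testes, most of it Rnase10. Whole testis RNA was measured, so fewer cells of a type and less RNA per cell cannot be told apart.

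Coding sequence splits the sperm ADAM genes in a way that the choice of members did not use. A script searched the longest coding sequence of each gene in GENCODE M21 for the zinc-binding signature of the family, histidine and glutamate codons followed by 2 more histidine codons at fixed spacing. Of 21 sperm ADAM genes 12 held it, and of 12 somatic ADAM genes 9 did. Adam2, Adam3, Adam5, Adam18 and Adam32, which include the most abundant members, did not. The 33 coding bases are shown for members that the comparison turns on and for a pair of widely expressed sheddases, on GRCm38, 5′ to 3′ on the coding strand. Capitals mark the 3 histidine codons and the glutamate codon.
Adam24 (chr8:40680518-40680550, plus strand): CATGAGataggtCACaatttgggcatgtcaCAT
Adam25 (chr8:40754761-40754793, plus strand): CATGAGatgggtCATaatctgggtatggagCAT
Adam20 (chr8:40795917-40795949, plus strand): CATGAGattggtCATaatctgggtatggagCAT
Adam39 (chr8:40825636-40825668, plus strand): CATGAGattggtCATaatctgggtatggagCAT
Adam1a (chr5:121520089-121520121, minus strand): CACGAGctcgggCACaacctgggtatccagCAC
Adam9 (chr8:24990326-24990358, minus strand): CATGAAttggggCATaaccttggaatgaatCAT
Adam17 (chr12:21336732-21336764, minus strand): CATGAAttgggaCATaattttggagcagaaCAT
Adam20 and Adam39 have the same 33 bases. Over whole transcripts, Adam25 and Adam39 were 95.6% identical along 100% of Adam25, Adam26a and Adam26b 96.2% identical along 91.1% of Adam26a, and Adam6a and Adam6b 93.9% identical along 97.2% of Adam6a. No source used here says how the authors assigned reads to such copies, so the split within each of these groups is uncertain.

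Sperm ADAM transcripts made up nearly all ADAM transcripts of the testis. The 34 ADAM genes summed to 1263 ± 37.0 FPKM in KO-titled testes and 1238 ± 25.4 FPKM in WT-titled testes (n = 3 each, SD), of which the 21 sperm ADAM genes gave 98.2% in KO-titled testes and 98.1% in WT-titled testes. Adam3 and Adam5 alone gave 46.4% in KO-titled testes and 47.4% in WT-titled testes. By mean level over the 6 libraries Adam5 ranked 179 and Adam3 184 among the 25165 symbols. Adam32 followed at rank 548, Adam2 at 623 and Adam1a at 1198. The first somatic ADAM gene, Adam10, stood at rank 7681, between Adam26b at 7656 and Adam9 at 7914. Adam7, an ADAM gene of the epididymis, was listed at 0 in all 6 libraries.

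**Figure D1:**
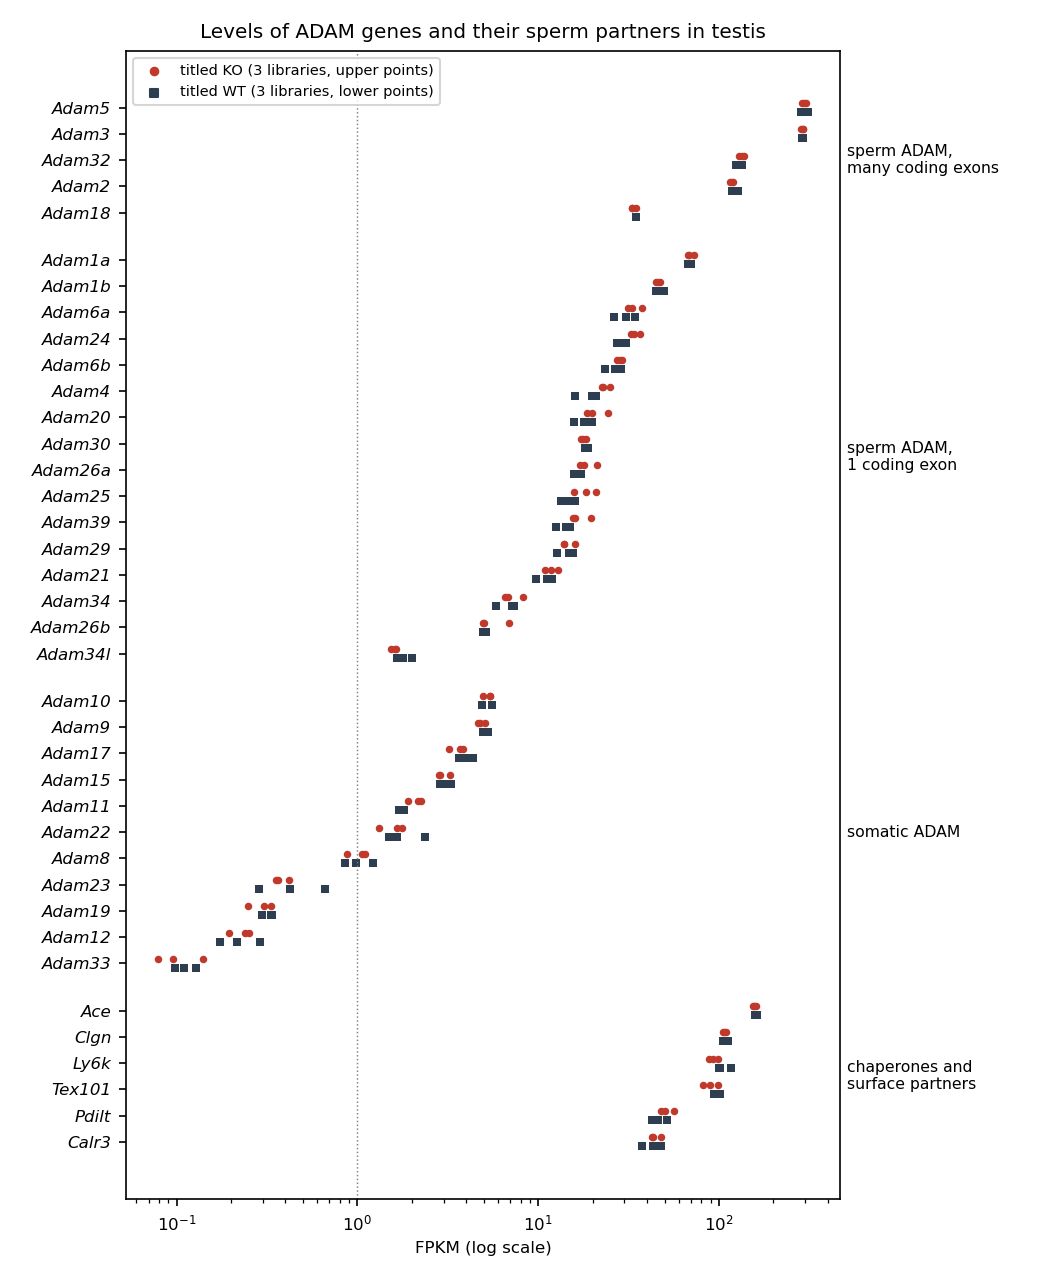
FPKM on a log axis for each of the 38 members above 0 in every library, by group and then by mean level, with the 3 libraries titled KO as upper points and the 3 titled WT as lower points. Sperm ADAM genes reach from about the level of Adam34l to that of Adam5, somatic ADAM genes lie at the level of Adam10 or lower, and the dotted line at 1 FPKM is the mean that a gene had to reach in one group to be tested.

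None of the 40 members passed the test between the groups. Of the 40, 34 reached a mean of 1 FPKM in one group or more and were tested on the log2(FPKM + 1) scale with limma. The call was a Benjamini-Hochberg adjusted p below 0.05 over all 12952 tested genes. By that rule 0 members were higher in KO-titled testes and 0 lower, where 0.788% of all tested genes were higher and 0.363% lower (1.15% in all). At an unadjusted p below 0.05 there were 5 members higher (Adam4, Adam24, Adam25, Adam39 and Adam11) and 1 lower (Ly6k), where 5.38% of all tested genes were higher and 8.89% lower. Libraries of the groups did not overlap for 6 of the 34 members, or 4 with KO-titled testes above and 2 below. Over all tested genes such separation was seen in 21.7%, 5.92% above and 15.8% below. These shares rest on few members, some of them near copies, and give no ground to set the members as a whole apart. The median log2 fold change was 0.01 over the 34 members and -0.04 over all tested genes.

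Adam3, whose product is the ADAM protein that sperm need on their surface, stayed within a narrow band. It was at 292, 292.5 and 284 FPKM in KO-titled replicates 1, 2 and 3, against 289, 292 and 290.2 FPKM in WT-titled testes. The groups overlapped, and the lowest and the highest library were both titled KO. The log2 fold change was -0.01 with an SE of 0.04 (limma adjusted p = 0.955) and a 95% interval of -0.10 to 0.09 on the log2(FPKM + 1) scale, not adjusted for the number of genes. Adam5, its neighbour on the chromosome and a testis ADAM gene, was at 297, 304 and 289 FPKM in KO-titled testes, against 284, 309 and 295 FPKM in WT-titled testes. Its lowest and its highest library were both titled WT. The log2 fold change was 0.005 (95% interval -0.11 to 0.12, limma adjusted p = 0.970). Adam3 and Adam5 overlapped each other in level, too, so their order does not exceed the spread between libraries.

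Adam32 and Adam18, the other testis ADAM genes of the same row, were as even. Adam32 was at 134, 137 and 129 FPKM in KO-titled testes, against 125, 126 and 135 FPKM in WT-titled testes (log2 fold change 0.05, 95% interval -0.07 to 0.17, limma adjusted p = 0.641). Adam18 was at 33.1, 34.7 and 33.2 FPKM in KO-titled testes, against 34.7, 34.6 and 34.6 FPKM in WT-titled testes (log2 fold change -0.04, 95% interval -0.15 to 0.07, limma adjusted p = 0.703). For each of them the groups overlapped. Together with Adam2, these are the 5 sperm ADAM genes whose coding region is spread over many exons, 19 to 22 in the longest annotated form. Their summed level was 871 ± 17.1 FPKM in KO-titled testes and 873 ± 19.9 FPKM in WT-titled testes (n = 3 each, SD).

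The fertilin subunits were next in level. Adam2, fertilin beta, was at 115, 119.8 and 119 FPKM in KO-titled testes, against 118, 127 and 126 FPKM in WT-titled testes. Its log2 fold change was -0.07 (95% interval -0.18 to 0.04, limma adjusted p = 0.526), and the groups overlapped. Adam1a, the fertilin alpha that pairs with ADAM2 within the endoplasmic reticulum, was at 68.5, 72.7 and 67.4 FPKM in KO-titled testes, against 67.7, 67.8 and 69.6 FPKM in WT-titled testes. Adam1b, the fertilin alpha of the mature sperm surface, was at 45.8, 44.9 and 47.25 FPKM in KO-titled testes, against 44.9, 49.35 and 47.98 FPKM in WT-titled testes. Their log2 fold changes were 0.02 for Adam1a and -0.04 for Adam1b (limma adjusted p = 0.828 for Adam1a and 0.724 for Adam1b). Adam1a and Adam1b share a stretch of over 99% identity along 34.5% of the Adam1a transcript, so their sum was also taken. It was 114 to 118 FPKM in KO-titled testes and 113 to 118 FPKM in WT-titled testes. The sum leaves out Gm42878, which overlaps an exon of Adam1a on the same strand and shares 22.1% of its transcript at 99.9% identity, so reads of these remain uncertain.

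In the other 14 sperm ADAM genes, as in Adam1a and Adam1b, the coding region lies in 1 exon. This split by exon structure was made after the values had been seen. Of the 16 genes so built, 13 had a log2 fold change above 0 and 3 below, with a median of 0.12, but 0 were called in either direction by limma. Adam24, or testase 1, was at 32.8, 36.6 and 34.01 FPKM in KO-titled testes, against 29.2, 27.4 and 30.7 FPKM in WT-titled testes. Every library titled KO lay above every library titled WT. The log2 fold change was 0.24 (SE 0.06, 95% interval 0.09 to 0.38, limma adjusted p = 0.151), the smallest adjusted p among the members. It has no near copy, here a gene with 90% identity or more over 50% of its transcript or more.

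The other genes of the Adam24 row, Adam25, Adam20 and Adam39, also had higher means in KO-titled testes and did not pass. Adam25, or testase 2, was at 15.8, 20.8 and 18.3 FPKM in KO-titled testes, against 14.5, 13.4 and 15.98 FPKM in WT-titled testes (log2 fold change 0.30, 95% interval 0.07 to 0.53, limma adjusted p = 0.239). Adam39 was at 15.6, 19.6 and 16.1 FPKM in KO-titled testes, against 14.3, 12.5 and 14.99 FPKM in WT-titled testes (log2 fold change 0.27, limma adjusted p = 0.257). Adam20 was at 18.6, 24.5 and 19.95 FPKM in KO-titled testes, against 17.8, 15.8 and 19.9 FPKM in WT-titled testes (log2 fold change 0.22, limma adjusted p = 0.400). Groups were apart for Adam39 and overlapped for Adam25 and Adam20, and in all 3 genes KO-titled replicate 2 was the highest library and WT-titled replicate 2 the lowest. Since these copies may share reads, their sum was also taken: 50.1, 64.9 and 54.3 FPKM in KO-titled testes, against 46.7, 41.7 and 50.9 FPKM in WT-titled testes. On the sum, too, the groups overlapped.

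Adam4 and the Adam6 pair lie on chromosome 12 and lack the zinc-binding signature. Adam4, a testis ADAM gene, was at 22.7, 24.9 and 22.45 FPKM in KO-titled testes, against 19.96, 15.96 and 20.98 FPKM in WT-titled testes. The groups were apart, with a log2 fold change of 0.29 (95% interval 0.07 to 0.51, limma adjusted p = 0.234). Adam4 has a near copy, Gm5746, with 91.7% identity along 88.6% of the Adam4 transcript, so its reads are uncertain. Adam6a and Adam6b, which lie within the immunoglobulin heavy chain region and are needed for male fertility in mice, did not pass either. Adam6a was at 33.2, 37.4 and 31.5 FPKM in KO-titled testes, against 30.8, 26.3 and 34.2 FPKM in WT-titled testes (log2 fold change 0.16, limma adjusted p = 0.465). Adam6b was at 28.2, 29.2 and 27.2 FPKM in KO-titled testes, against 26.6, 23.4 and 28.7 FPKM in WT-titled testes (log2 fold change 0.10, limma adjusted p = 0.520). The groups overlapped for both, and WT-titled replicate 2 was the lowest library for all 3 genes.

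The last row of chromosome 8 holds Adam26b, Adam26a, Adam34l and Adam34, near copies of one another in part. Adam26a, or testase 3, was at 17.1, 21.1 and 17.8 FPKM in KO-titled testes, against 15.7, 16.6 and 17.2 FPKM in WT-titled testes (log2 fold change 0.17, limma adjusted p = 0.388). Adam26b was at 5.03, 6.90 and 4.97 FPKM in KO-titled testes, against 4.98, 4.98 and 5.135 FPKM in WT-titled testes. Its log2 fold change of 0.12 (limma adjusted p = 0.578) came from KO-titled replicate 2, and without that library it was -0.01. Adam34, or testase 4, was at 6.83, 8.24 and 6.59 FPKM in KO-titled testes, against 7.20, 5.81 and 7.38 FPKM in WT-titled testes (limma adjusted p = 0.724). Adam34l was the lowest sperm ADAM gene, at 1.54, 1.64 and 1.61 FPKM in KO-titled testes, against 1.65, 1.78 and 2.01 FPKM in WT-titled testes. Here the groups were apart in the other direction (log2 fold change -0.12, limma adjusted p = 0.470). The 4 genes summed to 33.1 ± 4.11 FPKM in KO-titled testes and 30.1 ± 1.40 FPKM in WT-titled testes (n = 3 each, SD). The sum leaves out Gm5347, a near copy of Adam34l (94.7% identity along 98.1% of its transcript), of Adam34 and of Adam26b. Gm5347 had means of 1.87 FPKM in KO-titled testes and 2.06 FPKM in WT-titled testes, near the level of Adam34l. Reads of these genes, and the direction seen for Adam34l, remain uncertain.

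The last 3 sperm ADAM genes stand alone on the chromosome or near one other member. Adam30 was at 18.4, 17.7 and 17.3 FPKM in KO-titled testes, against 18.15, 18.97 and 18.77 FPKM in WT-titled testes (log2 fold change -0.06, limma adjusted p = 0.595). Adam29 was at 13.8, 15.9 and 13.9 FPKM in KO-titled testes, against 14.8, 12.7 and 15.6 FPKM in WT-titled testes (log2 fold change 0.02, limma adjusted p = 0.931). Adam21 was at 11.7, 12.9 and 10.9 FPKM in KO-titled testes, against 11.9, 9.69 and 11.2 FPKM in WT-titled testes (log2 fold change 0.11, limma adjusted p = 0.552). In each of them the groups overlapped.

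Neighbours on chromosome 8 differed widely in level. Adam18, Adam3, Adam5, Adam32 and Adam9 fill chr8:24602246-25016927, all on the minus strand and with 0 other protein-coding genes between them in GENCODE M21. Adam9 encodes a widely expressed sheddase. It was at 5.11, 4.63 and 4.76 FPKM in KO-titled testes, against 4.92, 5.31 and 5.11 FPKM in WT-titled testes, next to Adam32 at 129 to 137 FPKM in KO-titled testes and 125 to 135 FPKM in WT-titled testes. Adam24, Adam25, Adam20 and Adam39 fill chr8:40675077-40827037 on the plus strand, and the Adam26 and Adam34 genes chr8:43519762-43710049 on the minus strand, again with 0 other protein-coding genes in between.

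**Figure D2:**
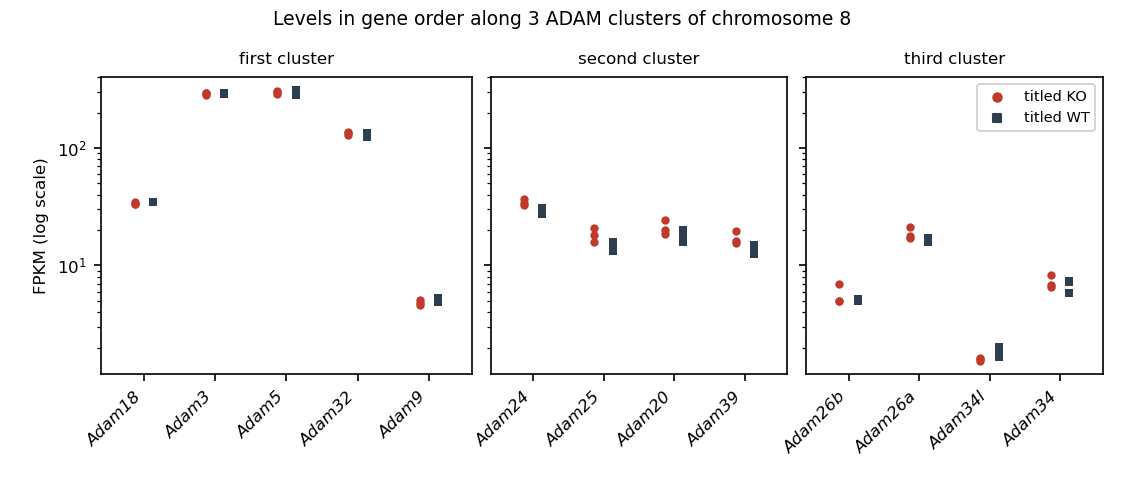
FPKM on a log axis for the members of 3 rows on chromosome 8, each in its order along the chromosome, with the 3 libraries titled KO to the left of the 3 titled WT for each gene. In the first row Adam9 lies near 5 FPKM beside Adam32 above 100 FPKM, and in the second row the KO-titled points of all 4 genes reach higher than their WT-titled points.

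The somatic ADAM genes were low, and 7 of the 12 were tested. Adam10, the alpha-secretase that also cleaves Notch, was at 5.43, 4.965 and 5.40 FPKM in KO-titled testes, against 4.88, 5.585 and 5.53 FPKM in WT-titled testes (log2 fold change -0.01, 95% interval -0.17 to 0.14, limma adjusted p = 0.932). Adam17, which releases tumour necrosis factor from cells, was at 3.69, 3.23 and 3.83 FPKM in KO-titled testes, against 3.67, 4.37 and 3.96 FPKM in WT-titled testes (log2 fold change -0.12, limma adjusted p = 0.477). Groups overlapped for both, as for Adam9 (log2 fold change -0.07, limma adjusted p = 0.618). Adam15, a broadly expressed member, was at 2.84 to 3.24 FPKM in KO-titled testes and 2.88 to 3.31 FPKM in WT-titled testes. Adam8, a gene of myeloid cells, was at 0.873 to 1.11 FPKM in KO-titled testes and 0.8585 to 1.23 FPKM in WT-titled testes.

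The neural members lack the zinc-binding signature. Adam11 was at 1.915, 2.16 and 2.25 FPKM in KO-titled testes, against 1.73, 1.69 and 1.81 FPKM in WT-titled testes, with the groups apart. Its log2 fold change of 0.18 (95% interval 0.02 to 0.34, limma adjusted p = 0.299) did not pass. Adam22, a receptor of the secreted protein LGI1 in the brain, was at 1.32 to 1.76 FPKM in KO-titled testes and 1.495 to 2.37 FPKM in WT-titled testes. Adam23, Adam19, Adam12 and Adam33 lay between 0.0795 and 0.4185 FPKM in KO-titled testes and between 0.0986 and 0.663 FPKM in WT-titled testes and were not tested. Adam28, a gene of lymphocytes, was listed at 0 in 4 libraries, and at 0.0114 FPKM in KO-titled replicate 2 and 0.0117 FPKM in WT-titled replicate 2, below the level that 3 fragments give on 1 kb. The 12 genes summed to 22.4 ± 1.008 FPKM in KO-titled testes and 23.3 ± 0.843 FPKM in WT-titled testes (n = 3 each, SD).

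Among the chaperones of the endoplasmic reticulum, calmegin was the most abundant. Clgn was at 105, 107 and 109 FPKM in KO-titled testes, against 105, 107 and 113 FPKM in WT-titled testes (log2 fold change -0.01, 95% interval -0.12 to 0.10, limma adjusted p = 0.912). Pdilt, a disulfide isomerase-like chaperone of the testis, was at 47.55, 56.6 and 50.3 FPKM in KO-titled testes, against 46.3, 42.8 and 51.7 FPKM in WT-titled testes (log2 fold change 0.13, limma adjusted p = 0.477). Calr3 was at 42.7, 47.9 and 43.4 FPKM in KO-titled testes, against 43.4, 37.55 and 48.01 FPKM in WT-titled testes (log2 fold change 0.06, limma adjusted p = 0.747). All of these overlapped between groups. The level of Clgn was close to that of Adam2, and the levels of Pdilt and Calr3, on which ADAM3 depends, were far below that of Adam3.

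Of the surface partners, Ly6k came closest to a difference. Ly6k, a GPI-anchored protein, was at 87.9, 92.3 and 98.75 FPKM in KO-titled testes, against 101.3, 117 and 99.7 FPKM in WT-titled testes. All libraries titled KO lay below those titled WT, KO-titled replicate 3 by a small margin. The log2 fold change was -0.19 (SE 0.07, 95% interval -0.35 to -0.02, limma adjusted p = 0.296). Tex101, which binds LY6K in germ cells of the mouse, was at 82.1, 88.7 and 98.8 FPKM in KO-titled testes, against 93.3, 95.8 and 101 FPKM in WT-titled testes. Its groups overlapped (log2 fold change -0.11, 95% interval -0.27 to 0.05, limma adjusted p = 0.482). An exon of Ly6k overlaps Gm17189 on the opposite strand, and with no stated strand setting for the counting, the reads of both cannot be told apart. The same limit holds for Adam3, Ace, Pdilt, Adam8, Adam15, Adam17 and Adam19, whose exons also overlap genes on the opposite strand. Adam34 overlaps Gm35629 on its own strand.

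Ace, the angiotensin-converting enzyme, was at 161, 155 and 156 FPKM in KO-titled testes, against 161, 158 and 161 FPKM in WT-titled testes. The groups overlapped, with a log2 fold change of -0.02 (95% interval -0.13 to 0.08, limma adjusted p = 0.803). RefSeq gives the gene a start at its 5′ end, which makes the somatic enzyme, and one inside the gene, which makes the shorter testis form. The value per gene does not separate them. Of 26 RefSeq promoter windows (250 bases before to 50 after a start, GRCm38.p6) that belong to 22 of the 40 members, 2 hold the letters TGAGGTCA on either strand, as do 2.17% of all 32851 windows. They are the internal window of Ace and the outer of the pair of Calr3 windows, printed 5′ to 3′ on the strand of the gene with these letters in capitals. The full cyclic AMP response element, TGACGTCA, is in 0 of the 26 windows and in 1.79% of all. Such a match is a description of the letters.
Ace (chr11:105974939-105975238, plus strand): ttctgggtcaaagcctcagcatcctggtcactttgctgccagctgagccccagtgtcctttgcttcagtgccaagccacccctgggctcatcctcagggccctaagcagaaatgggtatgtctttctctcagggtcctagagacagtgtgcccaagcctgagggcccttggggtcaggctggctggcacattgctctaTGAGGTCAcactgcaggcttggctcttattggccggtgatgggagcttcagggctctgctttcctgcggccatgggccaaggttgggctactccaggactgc
Calr3 (chr8:72443729-72444028, minus strand): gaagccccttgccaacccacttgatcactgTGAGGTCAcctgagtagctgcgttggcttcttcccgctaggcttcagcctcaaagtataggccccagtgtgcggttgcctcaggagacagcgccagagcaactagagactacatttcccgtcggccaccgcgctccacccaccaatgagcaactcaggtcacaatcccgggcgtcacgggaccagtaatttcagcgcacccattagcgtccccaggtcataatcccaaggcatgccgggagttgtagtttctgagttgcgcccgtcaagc

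**Figure D3:**
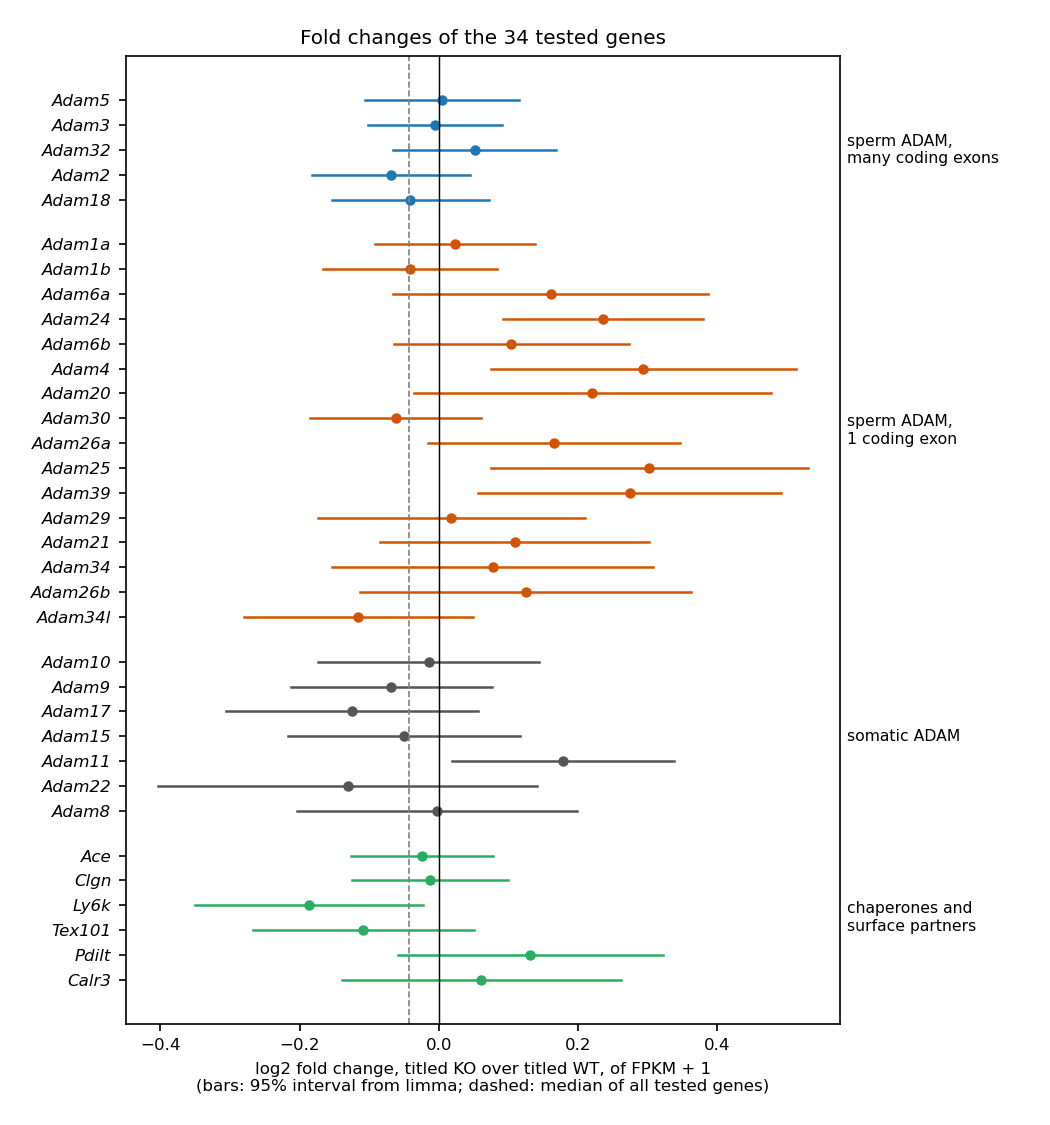
Log2 fold change of FPKM + 1, KO-titled testes over WT-titled testes, for the 34 tested members, with 95% limma intervals that are not adjusted for the number of genes. Intervals of Adam4, Adam24, Adam25, Adam39 and Adam11 lie above 0 and that of Ly6k below, none of these passed after adjustment, and the dashed line marks the median of all tested genes at -0.04.

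Sperm and somatic ADAM genes were then set side by side. The 21 sperm ADAM genes had a median log2 fold change of 0.08, with 15 above 0 and 6 below. The 7 tested somatic ADAM genes had a median of -0.05, with 1 above 0 and 6 below (3 and 4 under median-of-ratios or upper-quartile scaling), and all tested genes had 4438 above 0 and 8514 below. The summed level of sperm ADAM genes in KO-titled testes was 1.02 times that in WT-titled testes, and that of somatic ADAM genes 0.961 times. The positive median of the sperm ADAM genes lay with those of 1 coding exon (0.12), since the 5 with many coding exons had a median of -0.01, which became 0.02 under upper-quartile and 0.04 under median-of-ratios scaling. It was also carried by single libraries: without KO-titled replicate 2 the median of the 21 genes was -0.01, and without WT-titled replicate 2 it was 0.03. For the 16 genes with 1 coding exon these medians were 0.06 and 0.05.

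KO-titled replicate 2 and WT-titled replicate 2 stood at the ends of the range for these genes. Of the 16 sperm ADAM genes with 1 coding exon, 10 were both highest in KO-titled replicate 2 and lowest in WT-titled replicate 2. This pattern was seen in 9.36% of all tested genes and in 0 of the 5 sperm ADAM genes with many coding exons. Of those 5, however, 3 were highest in KO-titled replicate 2, as were 19.3% of all tested genes. The group of 16 and the pattern were both chosen after the values had been seen. Among the 10 are Adam20, Adam25 and Adam39, and Adam6a and Adam6b, near copies that may share reads. As medians over the 16 genes, KO-titled replicate 2 lay 0.21 above the mean of the 6 libraries on the log2 scale, and WT-titled replicate 2 lay at -0.20. The other libraries lay between -0.06 and 0.03. The round spermatid markers (Acrv1, Izumo1, Spaca1, Catsper3 and Tssk1) showed the same pattern in 5 of 5 genes, with medians of 0.26 in KO-titled replicate 2 and -0.19 in WT-titled replicate 2. Their summed level was 463 to 591 FPKM in KO-titled testes and 431 to 527 FPKM in WT-titled testes, and 0 of the 5 were listed at 0. Of the elongating spermatid markers (Prm1, Prm2, Tnp1, Tnp2 and Odf1), 3 of 5 showed it, with summed levels given above. All 5 round spermatid markers had log2 fold changes above 0, with a median of 0.12, and 4 of the 5 elongating ones did, with a median of 0.19. In 2 of the round and 3 of the elongating spermatid markers every library titled KO lay above every library titled WT. Of all tested genes, 5.92% were placed so, and each marker list holds only 5 genes. By limma 0 of either list were called, but 3 of the 5 elongating spermatid markers were with every library scaled to the same FPKM total and 2 under upper-quartile scaling. With the same FPKM total 193 of 12956 tested genes were called, and under upper-quartile scaling 154 of 12939. The part of the spermatid markers in the fold changes of the ADAM genes was not tested.

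**Figure D4:**
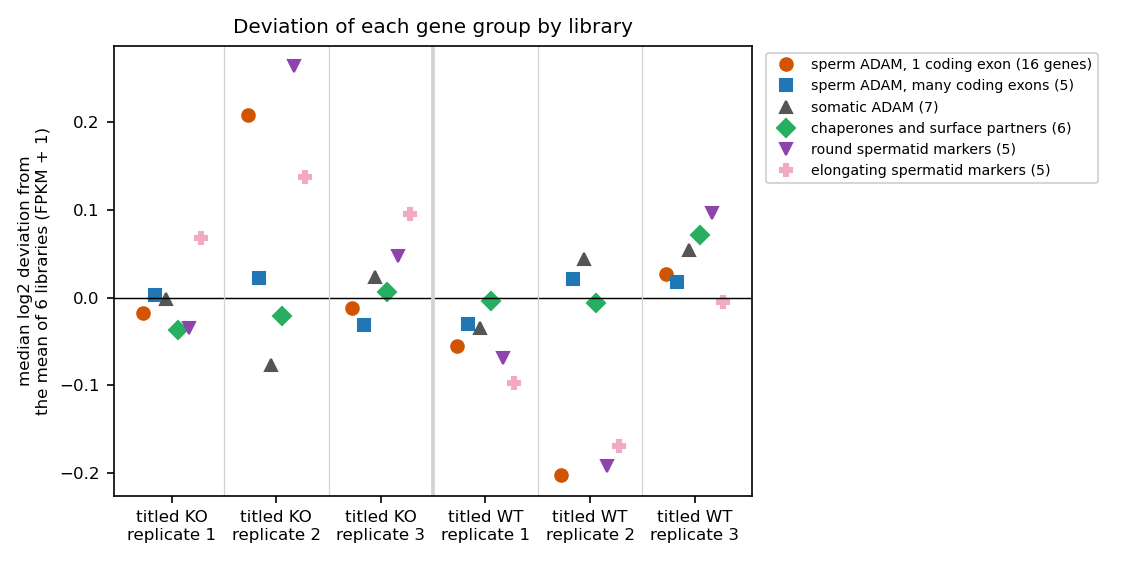
Median deviation of each gene group from the mean of the 6 libraries, on the log2(FPKM + 1) scale, with the 3 libraries titled KO on the left and the 3 titled WT on the right. Sperm ADAM genes with 1 coding exon and round spermatid markers are highest in KO-titled replicate 2 and lowest in WT-titled replicate 2. So are elongating spermatid markers, at 0.14 in KO-titled replicate 2 and -0.17 in WT-titled replicate 2. Sperm ADAM genes with many coding exons stay between -0.03 and 0.02.

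Genes that act on ADAM proteins were read from lists, and 0 of their tested members were called by limma in either direction. Of 6 tested genes known to affect ADAM3 on mouse sperm, 0 were higher and 1 lower at an unadjusted p below 0.05. Over all tested genes 5.38% were higher and 8.89% lower at that threshold, so 1 of 6 does not set the list apart. The lower gene was Tpst2, a tyrosine sulfotransferase, at 2.755, 2.49 and 2.90 FPKM in KO-titled testes, against 3.02, 3.24 and 3.40 FPKM in WT-titled testes (log2 fold change -0.18, limma adjusted p = 0.296). Pmis2 was at 101.2, 119 and 106 FPKM in KO-titled testes, against 99.9, 94.4 and 104 FPKM in WT-titled testes (log2 fold change 0.13, limma adjusted p = 0.405). The most abundant gene of this list, Cmtm2a, was at 507 to 567 FPKM in KO-titled testes and 513 to 549.5 FPKM in WT-titled testes. Among 4 tested proprotein convertases, which remove the prodomain of precursors, Pcsk6 was at 1.87, 1.78 and 1.88 FPKM in KO-titled testes, against 2.503, 2.67 and 2.31 FPKM in WT-titled testes. Its groups were apart (log2 fold change -0.30, limma adjusted p = 0.0949). Furin, the broadly expressed convertase, was at 2.92, 2.66 and 3.07 FPKM in KO-titled testes, against 3.045, 3.38 and 3.27 FPKM in WT-titled testes, with overlap (log2 fold change -0.12, limma adjusted p = 0.436). Pcsk4, the convertase of sperm, was at 41.6 to 47.6 FPKM in KO-titled testes and 39.7 to 43.8 FPKM in WT-titled testes (log2 fold change 0.10, limma adjusted p = 0.479).

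Of general chaperones and shedding regulators, too, 0 passed. Below 0 is also where most tested genes lay, 8514 of 12952 with a median of -0.04, and no test was made of the signs of these lists. All 7 tested general chaperones (Canx, Calr, P4hb, Pdia3, Pdia6, Hspa5 and Hsp90b1) had log2 fold changes below 0, with a median of -0.10. Only 5 of 7 did under median-of-ratios and under upper-quartile scaling. P4hb, a protein disulfide isomerase, was at 16.5, 15.4 and 16.8 FPKM in KO-titled testes, against 18.5, 19.95 and 19.5 FPKM in WT-titled testes (log2 fold change -0.24, limma adjusted p = 0.122). Canx, or calnexin, was at 41.4 to 42.4 FPKM in KO-titled testes and 42.9 to 47.8 FPKM in WT-titled testes, apart by a small margin (log2 fold change -0.12, limma adjusted p = 0.380). Of 13 inhibitors and cofactors of somatic ADAM proteins 8 were tested, and all 8 had values below 0, with a median of -0.11, though 7 of 8 did under each of those scalings. The metalloprotease inhibitor gene Timp2 was at 29.1, 25.8 and 28.95 FPKM in KO-titled testes, against 31.04, 30.05 and 32.8 FPKM in WT-titled testes (log2 fold change -0.16, limma adjusted p = 0.309). Tspan33, a tetraspanin that carries ADAM10, was at 3.43, 3.23 and 4.06 FPKM in KO-titled testes, against 4.19, 4.48 and 3.93 FPKM in WT-titled testes, with overlap (log2 fold change -0.19, limma adjusted p = 0.345). Sertoli markers, of which 5 of 6 were below 0, summed to 125 to 133 FPKM in KO-titled testes and 131 to 142 FPKM in WT-titled testes, with 0 of the 6 listed at 0. Leydig markers, below 0 in 5 of 5, summed to 1469 to 1715 FPKM in KO-titled testes and 1645 to 1707 FPKM in WT-titled testes, also with 0 listed at 0. Of the remaining marker lists, 3 of 4 tested spermatogonial, 2 of 5 spermatocyte, 2 of 3 peritubular, 3 of 4 macrophage and 2 of 3 blood genes were below 0, and 0 of them were called by limma. The part of any of these lists in the values of the chaperones and shedding regulators was not tested.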

How the data were processed

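Total RNA from testis was made into directional NEBNext Ultra II libraries, per the labels' protocols. HISAT2 and the build mm10 appear, with no version, in the submitters' processing notes. No source used here gives the quantifier, annotation or strand setting. The deposited values are taken as FPKM, normalized by the authors to length and depth, because they hold fractions, sum to different totals, and value times transcript length clusters at multiples of 1 step. The step gave the depth, and floors of 3 fragments cover counting error only. Each table had 25910 rows and 25165 symbols, with rows summed per symbol.

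Libraries were grouped by title, and the targeted gene goes with the titles. No label ties libraries to separate animals. The p-values therefore measure spread between libraries that may be only technical. The test was limma 3.58.1 (R 4.3.3, trend and robust options, Benjamini-Hochberg adjustment) on log2(FPKM + 1), over 12952 genes whose mean reached 1 FPKM in either group. This scale understates how much low genes change. The test was tried on simulated data first. The members and lists were chosen with earlier results of these data known. Every member was reported. Each pathway list is given by its counts, with its called genes and up to 2 others of smallest p, and each cell type marker list by counts or summed levels. A few more of those genes were named after their values were seen. Positions are from GENCODE M21 (GRCm38, the assembly of mm10), where 39 members matched by symbol and Adam34l by a RefSeq synonym. Near copies were found with BLAST 2.17.0, and promoter windows are from RefSeq. Figures were drawn with matplotlib 3.10.9. Alternatives were other pseudocounts, filters, scalings, no robust option, the replicate number as a block, symbols on 1 row only, and each library left out.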

Additional observations from a re-analysis of the deposited data

How the results depend on the processing

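In the 16 alternatives, 0 members were called, as in the comparison reported. The smallest adjusted p of any member was 0.0898, for Adam25 without KO-titled replicate 1. The number of all genes called was 149, and it was 88 with no filter and 50 with the replicate number as a block. It ran from 73 to 233 with single libraries left out: 73 when KO-titled replicate 2 was dropped, 77 for KO-titled replicate 3, 81 for WT-titled replicate 1 and 233 for WT-titled replicate 3. Of the calls, 102 of 149 were higher in KO-titled testes, as were 121 of 154 under upper-quartile scaling and 184 of the 233. The replicate numbers gave no sign of pairing the libraries, though 3 libraries a group cannot exclude it. Deviations of libraries with the same number correlated at 0.0647, -0.129 and 0.0614. The highest correlation was that of KO-titled replicate 2 with WT-titled replicate 3 (0.197), and KO-titled replicate 1 correlated best with WT-titled replicate 2 (0.159). The median log2 fold change of the 21 sperm ADAM genes lay between 0.07 and 0.12 under the other pseudocounts, filters and scalings, and between -0.01 and 0.13 with single libraries left out. That of somatic ADAM genes lay between -0.07 and -0.01 under all alternatives. For the 5 sperm ADAM genes with many coding exons, median-of-ratios scaling gave 0.0404 in place of -0.00571, while the median of all tested genes was -0.003 in place of -0.04. The cause of these differences was not tested. The split of sperm ADAM genes by exons, and its alternatives, were chosen after seeing the data. The intervals given are not adjusted for the number of genes, and those of Adam24 and Ly6k left out 0 though neither gene was called. The smallest change that could be called with 3 libraries a group was thus larger than the width of the intervals implies.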

Other observations

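Among sperm ADAM genes, the 12 with the zinc-binding signature summed to 269 ± 16.1 FPKM in KO-titled testes and 251 ± 8.79 FPKM in WT-titled testes, and the 9 without it to 971 ± 23.4 FPKM in KO-titled testes and 963 ± 18.6 FPKM in WT-titled testes (n = 3 each, SD). The genes without the signature thus gave 76.9% of all ADAM transcripts in KO-titled testes and 77.8% in WT-titled testes. Median log2 fold changes were 0.12 with the signature and 0.02 without it. All 12 genes with the signature have their coding region in 1 exon, so signature and exon structure cannot be told apart in that group. Of the 9 genes without it, Adam4, Adam6a, Adam6b and Adam29 have 1 coding exon. Their log2 fold changes were 0.29 for Adam4, 0.16 for Adam6a, 0.10 for Adam6b and 0.02 for Adam29. The other 5 genes without it, with many coding exons, had a median of -0.01. The part of either trait in these values was not tested.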
